A study of Mus musculus with 10 samples.

Results

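Polyribosome loading in serum-treated fibroblasts was taken as the contrast of polyribosome-associated RNA with undertranslated RNA, on the 4 serum-treated gradient arrays of the 10 arrays in the series. The cells were primary mouse embryonic fibroblasts, taken at e14.5 from C57/BLACK6 embryos of the genotype ATF1 +/-, so every group carried 1 disrupted copy of Atf1. All cultures were first starved for 48 h in 1% serum. The serum-treated group was then kept for 2 h in 10% serum, and the starved group, used here for 1 comparison, stayed in 1% serum. Cycloheximide, which arrests ribosomes on their mRNA, was added at 100 ug/ml for 30 min before lysis, and lysates were run through 15% to 50% sucrose. The polyribosome pool held mRNAs with several ribosomes. The undertranslated pool held mRNAs with at most 1 ribosome. Each pool has 2 arrays, and replicate 2 of each came from cultures that also received 200 uM 4-thiouridine and 3H-cytidine, while replicate 1 received neither. The labels call the replicates biological, but fractions of several cultures were mixed before hybridization and both pools come from the same kind of gradient. The p-values therefore cover only the differences among these arrays, some of which may be technical, and arrays of the 2 pools may share cultures.

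An mRNA that is being translated by several ribosomes at once sediments deep into a sucrose gradient, while free ribonucleoprotein, ribosomal subunits and single ribosomes stay near the top. The share of an mRNA in the polyribosome fractions is read as a measure of how much of it is engaged in translation. Serum stimulates growth signalling in fibroblasts and is known to act on translation of mRNAs with a 5' terminal oligopyrimidine tract (5' TOP mRNAs), which encode ribosomal proteins and elongation factors. Other mRNAs are classically held back by upstream open reading frames or by iron-responsive elements.

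The 2 pools gave arrays of very different brightness. The median intensity was 46.95 and 45.3 on the polyribosome arrays, against 5.7 and 8 on the undertranslated arrays. Of all probe sets, 70% and 73.5% lay above background in polyribosome RNA, against 43.4% and 44.9% in undertranslated RNA. Deposited intensities of the tested probe sets had a median ratio of 10.2 between the pools, and 91.3% of the 9316 tested probe sets were brighter on both polyribosome arrays than on both undertranslated arrays. The arrays were therefore quantile normalized, which gives every array the same distribution. Each difference below is a log2 difference of polyribosome minus undertranslated RNA on that scale. Folds given as "at least" are bounds on that scale too. The difference says where an mRNA stands relative to the other mRNAs of its pool, not what fraction of its molecules carried ribosomes. The replicates correlated across probe sets at r = 0.968 in polyribosome RNA and at 0.792 in undertranslated RNA, with a median SD of 0.20 log2 units in polyribosome RNA and 0.56 in undertranslated RNA. The 3' to 5' ratio of the Actb control probe sets was 21.1 and 12.8 in polyribosome RNA, against 23.6 and 33.9 in undertranslated RNA. For Gapdh it was 20.9 and 6.11 in polyribosome RNA, against 3.70 and 4.53 in undertranslated RNA. The part of array brightness and RNA quality in the results below was not tested.

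Of 30 gene lists on the quantile scale, lysosomal proteins, matrix glycoproteins, tRNA synthetases, cholesterol enzymes and proteasome subunits had the highest medians toward polyribosomes. Hox genes and a short list of noncoding RNAs, with Gas5 and Snhg1 called lower, had the lowest. Ribosomal protein mRNAs had called members on both sides. Among members above background on all 4 arrays, the medians were 1.904 for lysosomal proteins and 1.79 for matrix glycoproteins. They were 0.628 for tRNA synthetases (3 higher and 1 lower of 9) and 0.708 for cholesterol enzymes (3 higher and 2 lower of 8). Proteasome subunits stood at 0.488 (4 higher and 2 lower of 23). The full-list medians of these last 3 lists thus leaned on members below background on some array. With the values as deposited, taken relative to the median of all probe sets, 25 of the 30 list medians were higher than on the quantile scale, 6 changed sign and the balance of higher and lower calls turned in 4. Those are given beside the lists below. In that setting the endoplasmic reticulum chaperones stood at 2.54, below only lysosomal proteins at 2.57, and cholesterol enzymes stood at 1.77. Of the 9316 probe sets, 1482 were higher in polyribosome RNA (15.9%) and 1312 were lower (14.1%), together 2794 (30%) at an adjusted p under 0.05 (limma; smallest adjusted p = 0.00736). Taking 1 probe set per gene, 1176 of 6784 genes were higher (17.3%) and 882 were lower (13%), together 30.3%, with a median difference of 0.23. Calls on both sides near these shares, as in several lists below, are not particular to a list. Of the 1482 higher probe sets, 870 (58.7%) were above background on neither undertranslated array, so for them only a lower bound of the fold is known. Of the 1312 lower ones, 1076 were above background on both polyribosome arrays. Among the 4102 probe sets above background on all 4 arrays, 441 of the same calls were higher and 1073 lower.

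A fit without 1 array took its spread from the 2 arrays of the other pool alone. The median SD was 0.20 log2 units in polyribosome RNA and 0.56 in undertranslated RNA. Calls kept or gained without an undertranslated array, here and in the lists below, therefore rested on the smaller spread. They do not show that a call is firm. The number of calls depended on single arrays. It was 233 without polyribosome replicate 1 and 145 without replicate 2, against 5625 without undertranslated replicate 1 and 6414 without replicate 2. Of the 2794, 230 and 144 were called in the same direction without 1 polyribosome array, and 2788 without either 1 of the undertranslated arrays. Of 143 named probe sets that were called, 21 kept the call without each of the 4 arrays in turn. On the polyribosome side these were Serpinh1, Hars, Itm2c, Rpl8, Lamp2, Fbln2, Bgn, Tuba1c and Col1a2. On the undertranslated side they were Sgip1, Mtm1, 1110032A03Rik, Noct, Actb (1 probe set of shared sequence), Col1a1, Tfrc, Eif1ax, Naca, Gas5, Fn1 and Jund. The other named calls were each lost without at least 1 array.

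**Figure D1:**
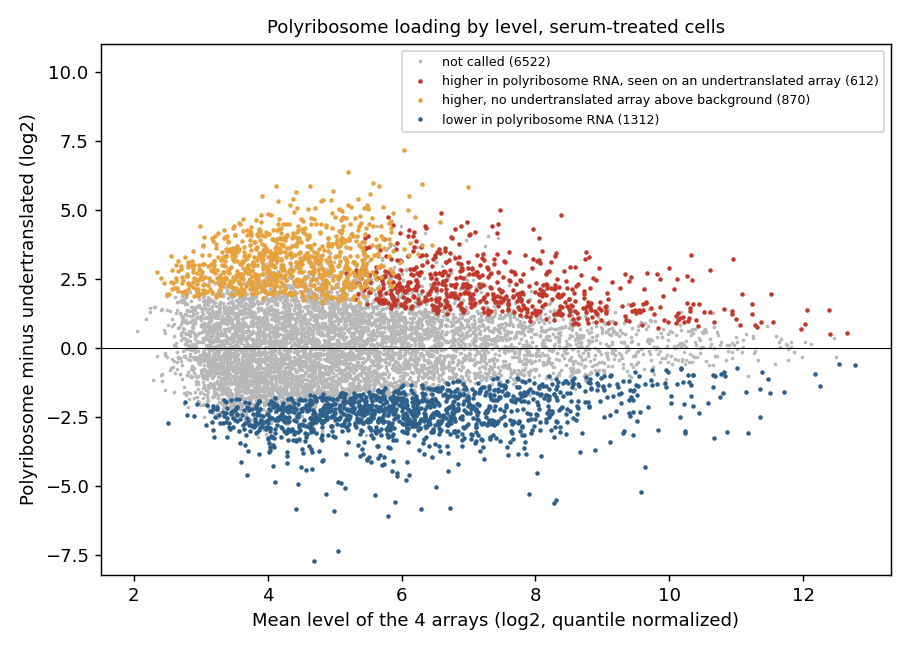
Mean log2 level of the 4 arrays (x axis) against the log2 difference of polyribosome minus undertranslated RNA (y axis) for 9316 probe sets. Red and orange points are higher in polyribosome RNA, the 870 orange ones with no undertranslated array above background, and the 1312 blue points are lower.

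Values as deposited show which of the lower calls do not rest on the scaling. Of the 1312 lower probe sets, 77 (5.87%) were dimmer on both polyribosome arrays than on both undertranslated arrays, and 948 (72.3%) were brighter on both. Without any scaling 25 probe sets passed as lower. Of these, 4 have 1 gene symbol (Sgip1, Rpl32, Mtm1 and Foxn3) and 21 have none or several in the annotation used here. All 1482 higher probe sets were brighter on both polyribosome arrays.

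The largest fitted difference toward polyribosomes was that of Serpinh1, the collagen chaperone HSP47 of the endoplasmic reticulum. Its intensity was 3086 and 2703 in polyribosome RNA, against 0.9 and 3.5 in undertranslated RNA. The fitted difference was 7.19 ± 0.56 (SE, n = 2 each; adjusted p = 0.0103), and with background taken into account Serpinh1 was at least 28.9-fold higher on the scaled values. Serpinf1, a secreted serpin also known as PEDF, had intensities of 1735 and 3190 in polyribosome RNA, against 2.1 and 5.5 in undertranslated RNA, and was at least 22.6-fold higher. Itm2c, a membrane protein of the BRICHOS family, had 2962 and 3875 in polyribosome RNA, against 4.0 and 7.7 in undertranslated RNA, and was at least 34.7-fold higher. For these 3 genes the undertranslated values lay below background on both arrays, so the order of their fitted differences rests on such values. By the bounds Itm2c stood above Serpinh1. The groups did not overlap, which holds for all 1482 higher calls and for 91.3% of the probe sets tested. A second Serpinf1 probe set, of type r, stood at 0.58 ± 0.54 and did not pass.

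The other large differences in this direction came from several cell compartments. Txndc5, a thioredoxin-domain protein of the endoplasmic reticulum, was at least 13.7-fold higher (5.97 ± 0.51). Csrp1, a LIM protein of the actin cytoskeleton, was at least 14.0-fold higher, measured by a probe set with sequence shared between genes. Rabac1, which binds Rab GTPases, was at least 11.7-fold higher. Cops6, a subunit of the COP9 signalosome, was at least 8.21-fold higher and Sphk1, which makes sphingosine 1-phosphate, at least 5.52-fold. The proteasome subunits Psmd4 and Psmd13, the synthetase Hars and the cholesterol enzyme Fdps complete the 12 and are described with their groups.

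Toward undertranslated RNA, Sgip1, which acts in clathrin-mediated endocytosis, had the largest difference, by a probe set of shared sequence. Its intensity was 1.6 and 1.9 in polyribosome RNA, against 47.4 and 92.4 in undertranslated RNA, so the groups did not overlap even before scaling. Without scaling its difference was -4.38 ± 0.52. On the quantile scale the difference was -7.35 ± 0.45 (adjusted p = 0.00736), and Sgip1 was at least 54.6-fold lower in polyribosome RNA on that scale. Mtm1, the phosphoinositide phosphatase myotubularin, had 11.9 and 18.7 in polyribosome RNA, against 55.8 and 72.4 in undertranslated RNA (-5.56 ± 0.46, adjusted p = 0.0103, and -1.98 ± 0.47 without scaling), by a probe set of the family type f. The plain Mtm1 probe set had 206.4 and 141.9 in polyribosome RNA, against 10.1 and 14 in undertranslated RNA, and did not pass at 0.34 ± 0.42. Foxn3, a forkhead repressor, had 4.9 and 9.2 in polyribosome RNA, against 19.8 and 23 in undertranslated RNA, by a probe set of type g. Its difference was -1.46 ± 0.51 without scaling and -4.42 ± 0.55 on the quantile scale, where it was at least 14.3-fold lower. A second Foxn3 probe set stood at -0.13 ± 0.65 and did not pass.

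For the other large differences in this direction, except that of Rpl32, the deposited intensities of the pools lay close together or overlapped. Noct, a circadian phosphatase also called nocturnin, had 565 and 747 in polyribosome RNA, against 730 and 1896 in undertranslated RNA (-4.31 ± 0.24). That probe set is of the family type f, while the other 2 tested Noct probe sets stood at 0.31 ± 0.21 and -0.36 ± 0.38. Vps13c, a lipid transfer protein, had 24.6 and 16.9 in polyribosome RNA, against 24.7 and 43.5 in undertranslated RNA (-4.14 ± 0.43). Cyp2b10, a cytochrome P450 best known from liver, stood at -4.08 ± 0.58. Tcta, 1110032A03Rik, Usp25 and Clgn ranged from -4.43 to -4.11, each by a probe set with the suffix r, for which the array's design rules were relaxed. Plain probe sets of Tcta and Clgn stood at -0.25 ± 0.81 and -1.61 ± 0.70 and did not pass. Rpl32 and Actb are given below.

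**Figure D2:**
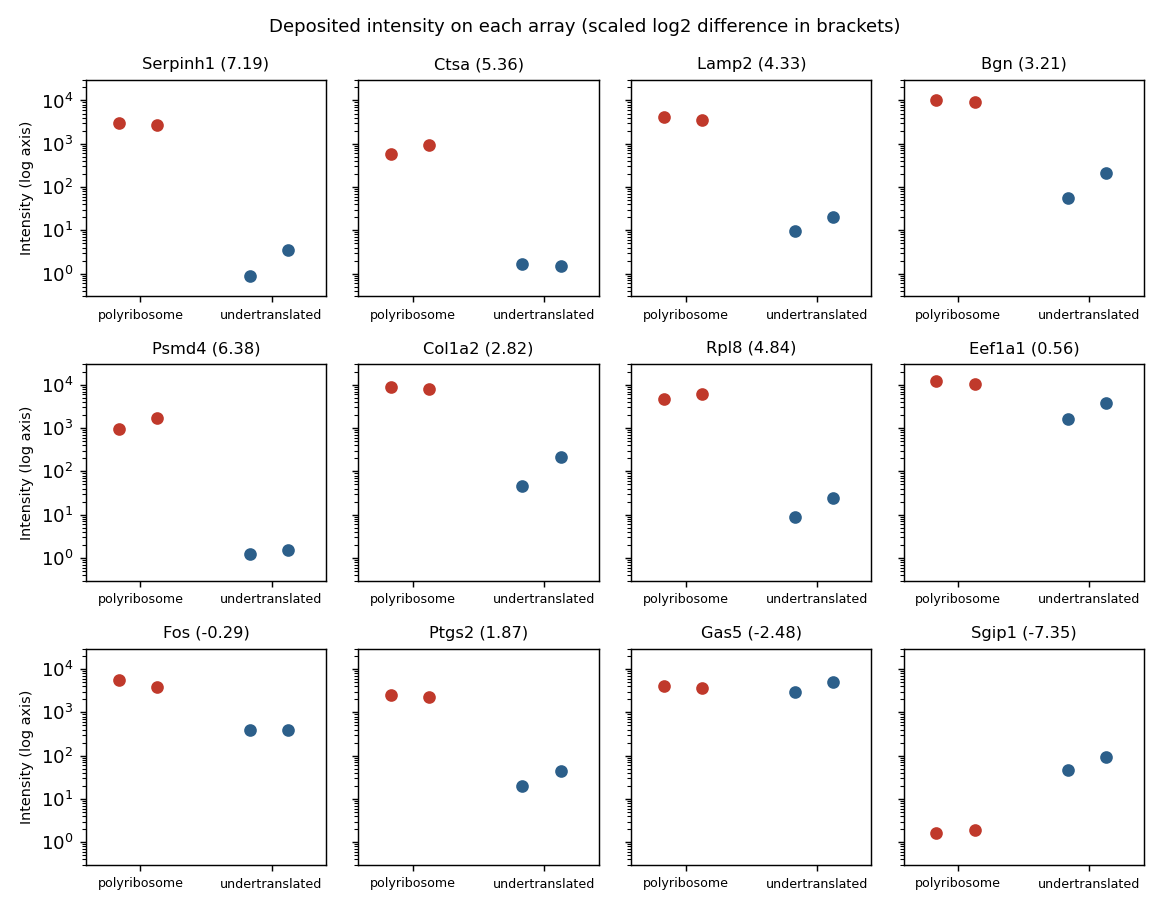
Deposited intensity (log axis) of 12 genes on the 2 polyribosome arrays (red, left) and the 2 undertranslated arrays (blue, right), with the scaled log2 difference in brackets. Sgip1 is dimmer in polyribosome RNA, Gas5 has overlapping intensities, and the other 10 are brighter in polyribosome RNA.

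Lysosomal proteins, which digest macromolecules, are made on ribosomes of the rough endoplasmic reticulum, as are secreted proteins. Of 21 lysosomal genes tested, 12 were higher in polyribosome RNA and none was lower, and their median difference was 2.04, against 0.23 over all genes. Lamp2, a membrane protein of the lysosome, had intensities of 4239 and 3577 in polyribosome RNA, against 9.4 and 19.8 in undertranslated RNA. The difference was 4.33 ± 0.36 (adjusted p = 0.0103), with a second Lamp2 probe set at 2.94 ± 0.47. Ctsa, the protective protein cathepsin A, had 566 and 940 in polyribosome RNA, against 1.7 and 1.5 in undertranslated RNA, and was at least 7.17-fold higher. Hexa, a subunit of beta-hexosaminidase, stood at 3.77 ± 0.48, and its second probe set at 1.85 ± 0.54 did not pass (adjusted p = 0.0537). Ctsz was at least 2.73-fold higher. The 9 members that did not pass lay between -0.04 for Ctse and 2.04 for Glb1, of which another probe set was higher at 4.06. The number of higher members was 6 and 3 without polyribosome replicate 1 and 2, and 15 and 19 without undertranslated replicate 1 and 2.

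Secreted glycoproteins of the matrix stood in the same direction, with 11 of 20 tested higher, 1 lower and a median of 1.97. Bgn, the small proteoglycan biglycan, had intensities of 10172 and 9104 in polyribosome RNA, against 54.8 and 209.9 in undertranslated RNA (3.21 ± 0.28, adjusted p = 0.0103). A second Bgn probe set, of the family type f, stood at -0.49 ± 0.34 and did not pass. Fbln2, an elastic fibre protein, had 4569 and 4520 in polyribosome RNA, against 16.0 and 43.8 in undertranslated RNA (3.29 ± 0.38). Lum stood at 3.18 ± 0.51 and Vcan, the proteoglycan versican, at 3.09 ± 0.60. The exception was Fn1, fibronectin, with 789 and 790 in polyribosome RNA, against 123.8 and 197.8 in undertranslated RNA (-2.15 ± 0.27). Fn1 was brighter in polyribosome RNA but less so than most genes, and its call was lost with deposited values relative to the median (-0.86, adjusted p = 0.287). Without polyribosome replicate 1 and 2 the list had 3 and 2 higher members, and without undertranslated replicate 1 and 2 it had 14 and 15.

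Collagens and the proteins that fold them gave 4 higher, 1 lower and 9 not called of 14, with a median of 0.84. Col1a2 had 8818 and 8108 in polyribosome RNA, against 44.7 and 210.8 in undertranslated RNA (2.82 ± 0.36). Col3a1 stood at 1.60 ± 0.36 (adjusted p = 0.0284), and a second probe set was higher at 3.12 ± 0.43. Col1a1, the partner chain of Col1a2 in type I collagen, gave the lower call, with 515 and 258 in polyribosome RNA, against 188.6 and 472.3 in undertranslated RNA (-3.76 ± 0.33). Its other probe set stood at 0.80 ± 0.32 and did not pass, and the second Col1a2 probe set, of type r, stood at -2.60 ± 0.37, so the probe sets of both chains disagreed. Of 11 chaperones and disulfide isomerases of the endoplasmic reticulum, 7 were higher and 1 was lower, with a median of 1.25. They included the prolyl isomerase Ppib at 3.33 ± 0.62, the disulfide isomerase Pdia6 at 2.88 ± 0.46 and the Hsp40 protein Dnajc3 at 2.17 ± 0.53. Pdia3, another disulfide isomerase, was at least 4.64-fold higher. Canx, the lectin chaperone calnexin, was the lower member at -1.50, while its other probe set at -0.38 did not pass. The chaperone list had no call without either polyribosome array and 7 higher and 2 lower without either undertranslated array. The collagen list kept 2 higher and 1 lower without either polyribosome array, and had 6 and 9 higher without undertranslated replicate 1 and 2.

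**Figure D3:**
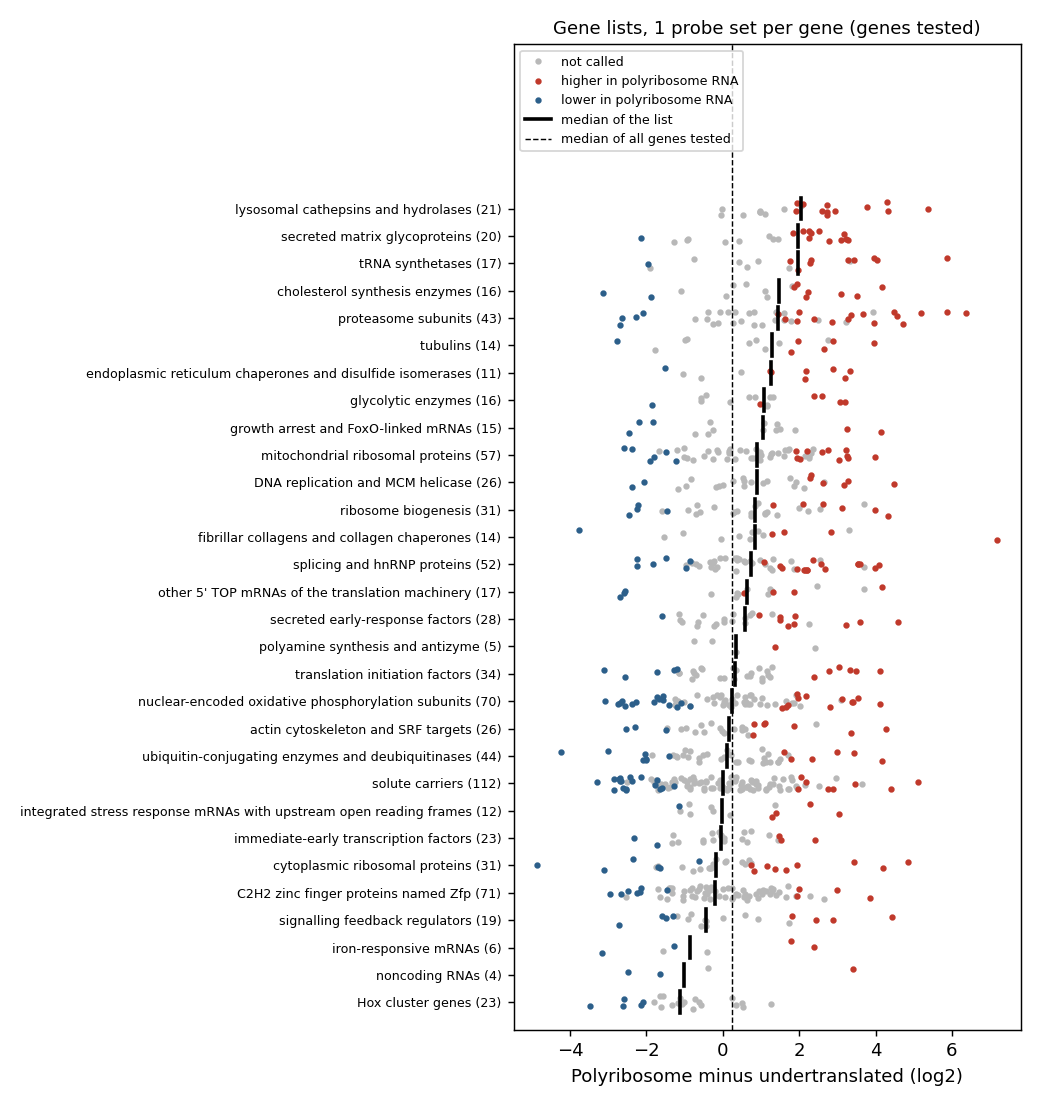
Log2 difference of polyribosome minus undertranslated RNA for the members of 30 gene lists, 1 probe set per gene, with the number tested in brackets. Black bars are list medians, the dashed line is the median of all 6784 genes (0.23), and lists run from lysosomal genes (2.04) at the top to Hox genes (-1.13) at the bottom.

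The proteasome degrades ubiquitin-tagged proteins. Of 43 genes with proteasome symbols, which take in regulators and assembly chaperones, 16 were higher, 4 were lower and 23 were not called, with a median of 1.45. Psmd4, a ubiquitin receptor of the 19S particle, had intensities of 975 and 1673 in polyribosome RNA, against 1.2 and 1.5 in undertranslated RNA, and was at least 12.2-fold higher. Psmd13, of the same particle, was at least 6.92-fold higher and the PA28 regulator subunit Psme1 at least 6.66-fold higher. Psmb5, the chymotrypsin-like catalytic subunit, was at least 9.85-fold higher by 1 probe set, while another stood at -2.60 ± 0.50 and was lower. The lower members were Psmd2, Psmd9, Psmg3 and Psmc4, from -2.10 to -2.69, with Psmd9 and Psmg3 measured by type r probe sets and the plain Psmg3 probe set at 0.81 not called. The list had 3 and 0 higher members without polyribosome replicate 1 and 2, and 23 and 29 without undertranslated replicate 1 and 2. Of 44 ubiquitin-conjugating enzymes and deubiquitinases, 6 were higher and 7 lower with a median of 0.12, against 8 higher and 5 lower (median 0.65) with deposited values relative to the median.

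The tRNA synthetases, which charge tRNAs with amino acids, gave 9 higher and 1 lower of 17, with a median of 1.97. Hars, the histidine enzyme, had 418 and 507 in polyribosome RNA, against 0.5 and 0.5 in undertranslated RNA, and was at least 4.85-fold higher. Nars stood at 4.04 ± 0.52, Aars was at least 3.46-fold higher and Qars at least 5.99-fold higher. Wars, the tryptophan enzyme, was the lower member at -1.95, but another Wars probe set was higher at 2.13. Of the 17, 1 was higher without polyribosome replicate 1, 1 without replicate 2, and 12 without either undertranslated array.

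Among metabolic enzymes, 7 of 16 cholesterol synthesis genes were higher and 2 were lower, with a median of 1.48. Fdft1, which makes squalene, had 946 and 1099 in polyribosome RNA, against 2.1 and 10.3 in undertranslated RNA (4.17 ± 0.71). Fdps, which makes farnesyl diphosphate, stood at 3.50 ± 0.42, and a second probe set was at least 17.1-fold higher, while another stood at -2.16 ± 1.12 and did not pass. Ebp was at least 4.55-fold higher. Nsdhl gave opposite calls, lower at -3.14 ± 0.38 by its brightest probe set and at least 1.38-fold higher by another (3.58 ± 0.60). A further Nsdhl probe set at 0.84 ± 0.53 was not called. Of 16 glycolytic enzymes 5 were higher, among them Pgam1 at 3.20 ± 0.82 and Pkm, pyruvate kinase, at 2.39 ± 0.35 (a second probe set at -0.16 ± 0.42 did not pass), and Hk1 was lower at -1.85. Neither list had a higher member without 1 polyribosome array, and they had 9 and 10, and 7 and 10, without undertranslated replicate 1 and 2.

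Tubulins form microtubules and actin forms the contractile filaments of fibroblasts. Of 14 tubulin genes 5 were higher and 1 was lower, with a median of 1.29. Tuba1c had 6670 and 7160 in polyribosome RNA, against 35.2 and 104.9 in undertranslated RNA (2.90 ± 0.28). Tubb5 stood at 2.66 ± 0.43. These 2 and Tubb3 were measured by family-type probe sets, which may read several tubulins, and a second Tubb3 probe set at -1.67 ± 0.51 did not pass. Of 26 actin cytoskeleton genes 7 were higher and 3 lower, with a median of 0.16, and 6 were higher and 1 lower (median 1.18) with deposited values relative to the median. Cnn2, a calponin, had 821 and 1596 in polyribosome RNA, against 8.6 and 2.6 in undertranslated RNA (4.28 ± 0.91), and the crosslinker Actn4 was at least 8.05-fold higher. Tpm3 at -2.29 ± 0.30 was lower, with a second probe set at -1.35 ± 1.02 not called. Tln1 was lower at -2.53 ± 0.36 by a type r probe set, while its plain probe sets at -1.65 ± 0.59 and -0.70 ± 0.61 did not pass. Actb stood at -0.57 ± 0.27 (adjusted p = 0.161) by its bright probe set, and at -4.18 ± 0.40 by another of shared sequence, with 88.6 and 45.8 in polyribosome RNA, against 56.2 and 104.4 in undertranslated RNA. The Actb value of -0.57 became 0.83 with deposited values relative to the median. Without polyribosome replicate 1 and 2 the tubulins had 1 and 1 higher members and the actin genes 0 and 0.

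Ribosomal proteins of the cytoplasm are encoded by 5' TOP mRNAs, which serum is classically known to recruit to polyribosomes. Of 31 tested, 9 were higher, 6 were lower and 16 were not called, with a median of -0.17, so the list did not stand on 1 side. Rpl8 had 4636 and 5987 in polyribosome RNA, against 9.0 and 24.6 in undertranslated RNA (4.84 ± 0.51, adjusted p = 0.0114). Rpl22 was at least 2.88-fold higher, and Rps4l at least 3.36-fold by a probe set of shared sequence, while second probe sets stood at -1.27 ± 0.61 for Rpl22 and -1.30 ± 0.49 for Rps4l and did not pass. Rplp0, Rps10, Rps19, Rpl19, Rps3 and Rps18 were higher by 1.95 to 0.75, but another Rpl19 probe set was lower at -2.80. Rpl32 had 2.8 and 2.9 in polyribosome RNA, against 16.3 and 21.7 in undertranslated RNA, by a probe set of type r that was above background on no polyribosome array. Its difference was -2.22 ± 0.56 without scaling and -4.86 ± 0.51 on the quantile scale, where it was at least 11.98-fold lower. Rpl39l, Rps27, Rps29, Rpl41 and Rps24 were lower, at -3.11 to -0.62. Ribosomal protein genes have many near-identical processed copies in the genome, so the signal of a probe set may come from more than 1 locus. With deposited values relative to the median, 7 were higher and 8 lower (median 0.18). Without polyribosome replicate 1 and 2 the list had 4 and 2 higher and 2 and 1 lower members.

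Other 5' TOP mRNAs also had members on both sides, with 4 of 17 higher, 3 lower and a median of 0.64, and 8 higher and 2 lower (median 1.65) with deposited values relative to the median. Eef1a1, the elongation factor that brings aminoacyl-tRNA to the ribosome, had 12157 and 10580 in polyribosome RNA, against 1659 and 3846 in undertranslated RNA. Its difference was 0.56 ± 0.12 (adjusted p = 0.0274), but turned to -1.02 with deposited values relative to the median, so its direction depends on the scaling. Eef2, the translocase, stood at 1.88 ± 0.53 (adjusted p = 0.0487) and Pabpc1, the poly(A)-binding protein, at 1.31 ± 0.26 (adjusted p = 0.0221). Eef1d was at least 5.25-fold higher. Tpt1 stood at -0.30 ± 0.14 and did not pass. Naca, of the nascent polypeptide-associated complex, stood at -2.69 ± 0.27 by a probe set of shared sequence. The elongation factor subunit Eef1b2 stood at -2.59 ± 0.57 by a type r probe set, while its plain probe set at 0.94 ± 1.19 did not pass. Among 34 genes with initiation factor symbols, which take in kinases and binding proteins of these factors, 6 were higher and 5 lower with a median of 0.33. Over all genes 17.3% were higher and 13% lower. Of the 22 above background on all 4 arrays none was higher and 5 were lower. With deposited values relative to the median, 11 of the 34 were higher and 3 lower (median 0.66). Eif3d was at least 5.76-fold higher. Eif1ax, which acts in start codon scanning, had 393 and 412 in polyribosome RNA, against 105.5 and 307.4 in undertranslated RNA (-3.12 ± 0.26), and its second probe set at -0.96 ± 0.58 did not pass.

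The bases around the transcription start are shown because they decide whether an RNA can carry a 5' TOP. Each line gives 10 bases before and 20 bases from the start on the gene's strand, from RefSeq with the build GRCm38.p6. Capitals mark CTTTC or CTCTT, 2 pyrimidine runs searched for. Other pyrimidine runs, such as those in the Serpinh1 and Snhg1 lines, carry no mark. A line without capitals therefore does not show that a pyrimidine tract is missing. Rps10 and Rps18 were higher in polyribosome RNA, Rps27, Gas5 and Snhg1 were lower, and Serpinh1 had the largest fitted difference toward polyribosomes.
Rps10, chr17:27635225-27635254, minus strand: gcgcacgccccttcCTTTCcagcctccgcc
Rps18, chr17:33955646-33955675, minus strand: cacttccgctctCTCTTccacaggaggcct
Rps27, chr3:90213629-90213658, minus strand: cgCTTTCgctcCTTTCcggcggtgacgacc
Gas5, chr1:161035156-161035185, plus strand: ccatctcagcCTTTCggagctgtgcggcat
Snhg1, chr19:8723477-8723506, plus strand: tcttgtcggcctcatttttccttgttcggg
Serpinh1, chr7:99353220-99353249, minus strand: ggtctttggctttttttctcctctccgagc

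In Rps27 a first CTTTC lies before the start and a second after it. Within 10 bases on either side of the start, CTTTC on the gene's strand was found in 138 of 5464 genes with a start in the table (2.53%), and in 6 of 26 ribosomal protein genes (23.1%). The 138 genes had a median difference of 0.49 and the others 0.27, with 21.7% higher and 10.1% lower among the 138, against 17.5% higher and 12.4% lower among the others. CTCTT was found in 149 genes (2.73%) and in 4 of 26 ribosomal protein genes. The 149 genes had a median of 0.51 and the others 0.26, with 16.8% higher and 10.1% lower among the 149, against 17.6% higher and 12.4% lower among the others. On the opposite strand neither run was found in a ribosomal protein gene. There CTTTC was found in 127 genes (2.32%), with medians of 0.28 with it and 0.27 without, and CTCTT in 126 (2.31%), with medians of -0.28 with it and 0.28 without. The gap between medians was thus wider for CTCTT on the opposite strand than for either run on the gene's strand. Gas5 has a second start in the table, chr1:161034591-161034620, whose window holds neither run. A match is a description of these letters, not a mapped start.

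Noncoding RNAs that are exported can still bind ribosomes, and Gas5 and Snhg1 are spliced hosts of small nucleolar RNAs with no long reading frame, known as 5' TOP RNAs. Gas5 had intensities of 4116 and 3601 in polyribosome RNA, against 2965 and 5150 in undertranslated RNA. These overlapped, while most genes were many times brighter in polyribosome RNA, and on the scaled values Gas5 stood at -2.48 ± 0.15 (adjusted p = 0.00736). A second Gas5 probe set stood at -2.46 ± 0.50 (adjusted p = 0.0236). Snhg1 had 1370 and 1256 in polyribosome RNA, against 117.0 and 308.8 in undertranslated RNA (-1.65 ± 0.22, adjusted p = 0.0124), and its call was lost with deposited values relative to the median (-0.41, adjusted p = 0.665). Meg3, an imprinted noncoding RNA, gave opposite calls, with 1 probe set at least 2.36-fold higher and the other at -2.38 ± 0.53. Xist stood at -0.40 and did not pass.

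The mRNAs with known translational control elements had called members on both sides, as did genes at large (17.3% higher and 13% lower). Of 12 integrated stress response mRNAs, which carry upstream open reading frames, 4 were higher and 1 lower, with a median of -0.03, and 4 were higher and none lower (median 0.67) with deposited values relative to the median. Atf5, a stress transcription factor, was at least 2.81-fold higher, and Eprs stood at 2.28 ± 0.36. Ppp1r15b, which directs dephosphorylation of eIF2, stood at 1.30 ± 0.33. Atf4, the classical example of the class, had 1088 and 1122 in polyribosome RNA, against 71.0 and 93.4 in undertranslated RNA (-0.86 ± 0.31, adjusted p = 0.0852), which became 0.56 with deposited values relative to the median. Of 6 iron-responsive mRNAs 2 were higher and 2 lower, with a median of -0.85. With deposited values relative to the median, 1 was higher and 2 lower (median 0.0049). Among them Tfrc, the transferrin receptor, had 227 and 226 in polyribosome RNA, against 111.0 and 99.0 in undertranslated RNA (-3.16 ± 0.45). The Tfrc probe set is of type g. Ireb2, an iron regulatory protein, was at least 2.62-fold higher. Slc11a2 gave opposite calls, lower at -1.28 ± 0.35 by 1 probe set and at least 1.82-fold higher by another. Fth1, ferritin heavy chain, stood at -0.42 ± 0.22 and did not pass, while a type r probe set of it stood at -3.70 ± 0.50. Odc1, the first enzyme of polyamine synthesis, stood at -0.74 ± 0.31 (adjusted p = 0.122), and Azin1, which frees Odc1 from antizyme, at 1.37 ± 0.32 (adjusted p = 0.0314).

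Immediate-early transcription factors are switched on by serum without new protein synthesis. Of 23 tested, 3 were higher, 2 lower and 18 not called, with a median of -0.04, and 4 were higher and 1 lower (median 0.80) with deposited values relative to the median. Fos had 5633 and 3950 in polyribosome RNA, against 395.0 and 398.5 in undertranslated RNA, and its scaled difference was -0.29 ± 0.36 (adjusted p = 0.546). A second Fos probe set stood at -1.07 ± 0.67. Egr1 had 8583 and 5444 in polyribosome RNA, against 330.4 and 563.8 in undertranslated RNA (0.52 ± 0.38, adjusted p = 0.331). Myc stood at 1.22 ± 0.62, above background on 1 of 2 undertranslated arrays, and did not pass. Junb stood at 0.56 ± 0.66 by a type r probe set, and its second probe set, of type i, was at least 1.74-fold higher (3.05 ± 0.67). Ier3, an early survival factor, had 4797 and 5112 in polyribosome RNA, against 25 and 97.3 in undertranslated RNA (2.41 ± 0.42, adjusted p = 0.0169), and Ier2 stood at 1.53 ± 0.43. Jund, a Jun protein made also in resting cells, stood at -1.71 ± 0.22, a call lost with deposited values relative to the median (-0.57, adjusted p = 0.531). Btg1 stood at -2.31 ± 0.37. The values of Fos and Egr1 changed sign without single arrays.

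Of 28 secreted factors of the early response, 9 were higher and 1 was lower, with a median of 0.57. Ptgs2, the inducible cyclooxygenase, had 2547 and 2232 in polyribosome RNA, against 20.3 and 44.2 in undertranslated RNA (1.87 ± 0.29, adjusted p = 0.0143). The urokinase receptor Plaur was at least 4.12-fold higher, the cytokine Il11 at least 1.50-fold, and the matricellular protein Ccn1 stood at 3.23 ± 0.38. Ccl2, a monocyte chemokine, had 4109 and 3537 in polyribosome RNA, against 232.0 and 434.6 in undertranslated RNA (-0.51 ± 0.20, adjusted p = 0.101). Vegfa stood at 2.26 ± 0.78 and did not pass. Without polyribosome replicate 1 and 2 the list had 0 and 1 higher members. Of 19 signalling feedback regulators 4 were higher and 4 lower, with a median of -0.45, and 6 were higher and 1 lower (median 0.52) with deposited values relative to the median. Dusp6, an ERK phosphatase, had 3974 and 1928 in polyribosome RNA, against 10.0 and 9.4 in undertranslated RNA (4.44 ± 0.53), and the stress proteins Gadd45g and Gadd45b stood at 2.89 ± 0.36 and 2.45 ± 0.28. Dusp1, another MAP kinase phosphatase, had 4124 and 3007 in polyribosome RNA, against 210.0 and 346.1 in undertranslated RNA (-0.46 ± 0.25, adjusted p = 0.201). Rgs5 was lower at -2.71 ± 0.54. Of 15 growth arrest and FoxO-linked genes, Gas6, a ligand of TAM receptors, stood at 4.14 ± 0.44 and the cell cycle inhibitor Cdkn1c at 3.24 ± 0.53, while Foxo4 at -2.45 ± 0.40, Cited2 at -2.19 ± 0.36 and Txnip at -1.82 were lower, with a second Txnip probe set at 1.67 not called. This list had 2 higher and 3 lower members, and 5 higher and 1 lower with deposited values relative to the median. The calls of Foxo4, Cited2 and Btg1 were lost in that setting, and the values of Fos, Ccl2, Dusp1, Fth1 and Odc1 turned positive.

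Mitochondrial proteins encoded in the nucleus had called members on both sides, as did genes at large, with 17.3% higher and 13% lower. Of 57 mitochondrial ribosomal proteins 11 were higher and 6 lower, with a median of 0.91. The 4 largest, Mrpl4, Mrpl34, Mrpl39 and Mrpl12, were at least 2.58-fold, 2.92-fold, 4.00-fold and 1.23-fold higher. Of the 11 higher members 10 lay below background on both undertranslated arrays. The 29 members above background on all 4 arrays had a median of -0.15, with none higher and 6 lower. Among the 4102 probe sets of that kind at large, 441 were higher and 1073 lower. Of 70 oxidative phosphorylation subunits 12 were higher and 16 lower, with a median of 0.23, and 20 were higher and 8 lower (median 0.99) with deposited values relative to the median. Ndufb8, of complex I, was at least 2.96-fold higher, and Ndufv2 stood at 3.55 ± 0.92, with a second probe set at 1.38 ± 0.80 not called. The lower members ranged from -0.86 for Cox6a1 to -3.08 for Atp5j and included Cox8b, Cox8c, Ndufa1, Ndufb3 and Uqcrh. Without polyribosome replicate 1 and 2 the mitochondrial ribosomal list had 0 and 0 higher and 3 and 1 lower members, and the oxidative phosphorylation list 1 and 0 higher and 6 and 5 lower.

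Splicing factors and hnRNP proteins process pre-mRNA in the nucleus. The counts of the 3 lists here stand beside 17.3% higher and 13% lower over all genes. Of 52 splicing and hnRNP genes 16 were higher and 6 lower, with a median of 0.74. Among members above background on all 4 arrays this median was -0.16. It was -0.90 for the DNA replication genes (0.90 over all 26) and -0.60 for the ribosome biogenesis genes (0.85 over all 31). The spliceosome core protein Prpf8 was at least 3.67-fold higher, Hnrnpd at least 3.43-fold, and U2af1, which binds the 3' splice site, stood at 3.53 ± 0.83. Srsf3 and Snrpg were lower, each at -2.23, Srsf3 by a family-type probe set while its plain one at -0.29 did not pass. Of 26 DNA replication genes 6 were higher and 2 lower, with Rrm1, the large subunit of ribonucleotide reductase, at least 4.52-fold higher. All 6 lay below background on both undertranslated arrays. Of 31 ribosome biogenesis genes 6 were higher and 4 lower, with Surf6 at least 1.83-fold and Gnl2 at least 2.62-fold higher, and the RNA polymerase I subunits Polr1b and Polr1c lower at -2.24 and -2.46, by probe sets of type f and r, and the plain Polr1c probe set at 0.10 did not pass. Without either polyribosome array none of these 3 lists had a higher member.

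Hox genes, which encode homeodomain regulators of position, gave no higher and 5 lower of 23, with a median of -1.13. Hoxb8 had 77.5 and 52.5 in polyribosome RNA, against 56.9 and 39.0 in undertranslated RNA (-3.48 ± 0.61, adjusted p = 0.0171), by a type r probe set. Hoxb1 had 24.9 and 24.9 in polyribosome RNA, against 15.7 and 17.9 in undertranslated RNA (-2.61 ± 0.49), and Hoxa4 stood at -2.59 ± 0.40 by a type r probe set, with another at -2.52 ± 0.75 not called. Zinc finger genes with Zfp symbols had 4 of 71 higher and 7 lower, with a median of -0.20. Zfp106 gave opposite calls, at least 5.52-fold higher by 1 probe set and lower at -2.82 ± 0.45 by another, and Zfp385a stood at -2.95 ± 0.40. Of 112 solute carriers, which are membrane transporters, 8 were higher and 18 lower, with a median of 0.0021, and 18 were higher and 29 lower (median -0.15) with deposited values relative to the median. Slc38a10 was at least 8.09-fold higher, and Slc12a5, the neuronal chloride transporter, stood at -3.30 ± 0.59. The Hox list had no call without either polyribosome array, and 10 and 14 lower members without undertranslated replicate 1 and 2.

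The kind of probe set moved with the direction of the calls. The suffix of a probe set tells how its probes were chosen: r when design rules were dropped, i when probes are incomplete, f for a gene family, g for a group of genes and s for sequence shared between transcripts. Of 564 tested probe sets of type r, 17 (3.01%) were higher and 207 (36.7%) were lower, with a median of -1.55. They made up 1.15% of the higher calls and 15.8% of the lower ones, against 6.05% of the probe sets tested. Of 7362 plain probe sets 1277 (17.3%) were higher and 867 (11.8%) lower. Probe sets without 1 symbol were 11.2% of those tested, 7.15% of the higher and 20.5% of the lower calls. Refitting the plain probe sets alone, an alternative added once the values were known, gave 1243 higher and 829 lower. Of 1274 genes with several tested probe sets 646 had at least 1 call, 106 had 2 or more calls in the same direction and 51 had calls in opposite directions. The part of probe design in the lower calls was not tested.

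**Figure D4:**
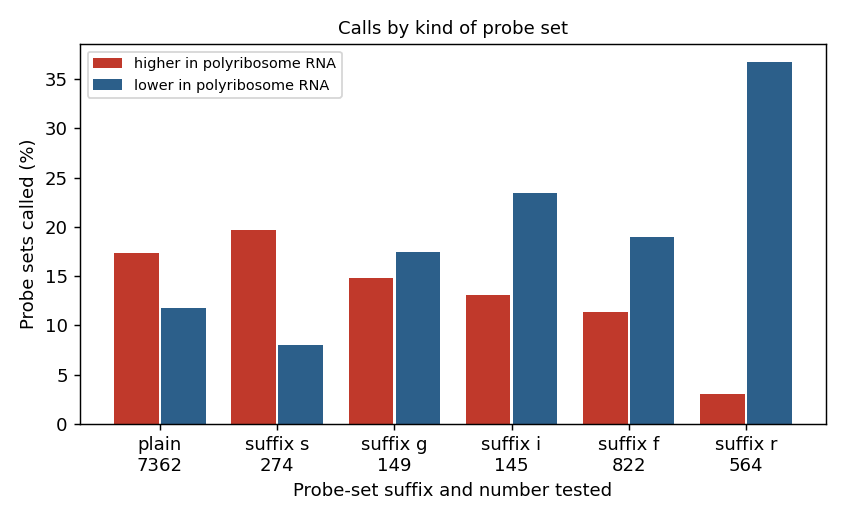
Percentage of tested probe sets called higher (red) and lower (blue) in polyribosome RNA by kind of probe set, with the number tested below each kind. Type r probe sets were lower in 36.7% and higher in 3.01%, plain ones lower in 11.8% and higher in 17.3%.

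The starved arrays were used to ask whether loading differed between the serum states. Testing the difference of the 2 contrasts over the 8 gradient arrays, 0 of 9316 probe sets passed (0%; limma, 720 at an unadjusted p under 0.05, smallest adjusted p = 0.442). The median size of the difference was 0.61 log2 units. Of the 1482 higher probe sets 98.7% also had a positive difference in starved cells, and of the 1312 lower ones 97.0% had a negative one, against the same sign in 82.4% of all probe sets. The differences of the serum-treated and the starved arrays, which share no array but were scaled together, correlated across the 9316 probe sets at r = 0.830 (rho = 0.823), given as a description. Without serum undertranslated replicate 2 the count of differences was 902, of which 719 lay toward polyribosomes after serum, and without replicate 1 it was 1.

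The genes with the smallest unadjusted p for this difference did not pass. Toward polyribosomes after serum they were Arfgap3, which acts in Golgi transport, with a difference of 3.70 in serum-treated and 0.076 in starved cells, Sltm with 3.26 in serum-treated and -0.15 in starved cells, and Tm2d3 with 3.07 in serum-treated and -0.16 in starved cells. Each lay below background on both serum undertranslated arrays. Toward undertranslated RNA they were Foxn3 with -4.42 in serum-treated and -0.28 in starved cells, Ly6h with -2.92 in serum-treated and 0.45 in starved cells, and Ylpm1 with 1.30 in serum-treated and 3.98 in starved cells. Foxn3 lay below background on both serum polyribosome arrays, and its other probe set had a serum-treated minus starved difference of 0.35 ± 1.05. Gas5 stood at -2.48 in serum-treated and -2.36 in starved cells, and Bgn at 3.21 in serum-treated and 3.13 in starved cells. Lamp2 stood at 4.33 in serum-treated and 3.82 in starved cells, and Sgip1 at -7.35 in serum-treated and -6.18 in starved cells. Serpinh1 stood at 7.19 in serum-treated and 3.62 in starved cells (limma interaction over 8 arrays, unadjusted p = 0.00102, adjusted p = 0.442). Serpinh1 also lay below background on both serum undertranslated arrays, and Sgip1 on both serum polyribosome arrays. The ribosomal protein list had medians of -0.17 in serum-treated and -0.48 in starved cells.

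**Figure D5:**
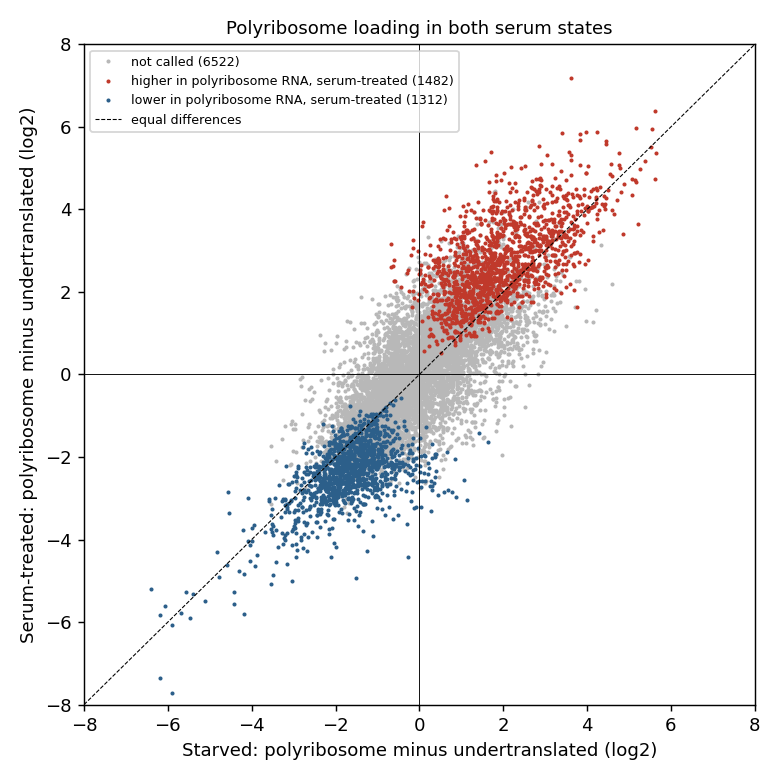
Log2 difference of polyribosome minus undertranslated RNA in serum-treated cells (y axis) against starved cells (x axis) for 9316 probe sets, with the dashed line at equal values. Red and blue points are the 1482 higher and 1312 lower calls in serum-treated cells, and most lie in the quadrants of equal sign.

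The labelled cell type was checked by its markers. Of 12 fibroblast markers 12 were above background on both polyribosome arrays and 11 on both undertranslated arrays, and 4 were higher and 3 lower with a median of -0.50. Their summed intensity was 32215 and 31504 in polyribosome RNA, against 674 and 2018 in undertranslated RNA. Vim, a fibroblast marker, had 35.6 and 39.8 in polyribosome RNA. Above background on both polyribosome arrays were also 5 of 7 endothelial and 5 of 6 epithelial markers. Of all probe sets 70% and 73.5% were above background there, so that count alone does not tell these cell types apart. The summed polyribosome intensity was 785 and 939 for endothelial and 164 and 175 for epithelial markers. Macrophage markers were also measured, with 9 of 11 above background on both polyribosome arrays and 3 on both undertranslated arrays, and a summed intensity of 3989 and 5008 in polyribosome RNA, against 96.1 and 214.4 in undertranslated RNA. None of their 9 tested members was called (median 1.29). The macrophage genes Itgam and Aif1 lay at 2.5 and 2.1, and 2.7 and 3.1, on the polyribosome arrays. Brighter there were Cd14 at 678.7 and 733.5, Laptm5 at 629.7 and 1136 and Lyz2 at 453.9 and 693.4. Ctss, which is in both the macrophage and the lysosomal list, had 1875 and 1953 in polyribosome RNA, against 11.9 and 93.4 in undertranslated RNA, and did not pass at 1.60. The part of other cells in the lysosomal result was not tested.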

How the data were processed

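Polyribosome and undertranslated RNA of serum-treated fibroblasts was measured on 2 Affymetrix arrays each, and that of starved cells likewise. Each deposited value is a linear intensity of 1 probe set. RNA was amplified linearly and labelled with biotin, per the labels' protocols. How probes were summarised and whether arrays were scaled is not given in the sources used here. Of 12488 probe sets 66 are controls. The platform annotation pairs 10833 of the others with 1 symbol, 396 with more than 1 and 1193 with none, and 10817 Entrez identifiers matched RefSeq (GRCm38.p6).

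Values were taken as log2(value + 1.5). Since array medians lay 2.953 log2 units apart, the 10 arrays were quantile normalized, the cytoplasmic ones serving in this step alone. The dimmest 25% of probe sets by mean level were dropped, leaving 9316. The program limma 3.58.1 in R 4.3.3 (lmFit and eBayes with a trend) fitted the 4 serum-treated gradient arrays on 2 residual degrees of freedom, and an interaction over 8 arrays for the serum states. Two-sided p-values were adjusted over all probe sets tested by the Benjamini-Hochberg method and called under 0.05. The fits were tested on data simulated once per setting. With 3000 changed probe sets the 4-array fit recovered 8.84%, 45.2% and 90.5% of changes of 1, 2 and 4 log2 units. Of its calls 4.32% were false. With 200 changed it made no call. The 8-array fit of the same contrast then recovered 74.1% at 4 log2 units, and 20% of its calls were false. With 3000 changed 8.83% were false. The interaction was not simulated, so the size of difference it would find is not known. The number of arrays limits the precision. An array's background was its brightest unspiked bacterial or yeast control. A side with no array over it has only a bound, set per array by the lowest level found over background or, if higher, the level measured there; bounds under 1 are not given.

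Lists use the probe set of the highest mean level per gene and are described by counts and medians. Named genes are the 12 largest differences each way among called probe sets with 1 symbol and the same direction in all pairs of arrays, up to 4 called members per list, 25 genes named in any case, and 3 genes each way for the serum states. Of the 25, 22 were measured; Ftl1, H19 and Oaz1 had no probe set with that symbol. Other list members are named as the ends of a range or as the only called ones in a direction, chosen after their values were seen. The members and lists were chosen with earlier results of these data known. Planned comparisons by protein length, zinc finger motifs and hydrophobic stretches were not run, since no protein sequences were used here. Alternatives were other scalings, pseudocounts, filters, fits, blocks and each array left out.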

Additional observations from a re-analysis of the deposited data

How the results depend on the processing

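With scaling other than quantile normalization the split of calls moved. Values as deposited gave 7914 calls (7889 higher, 25 lower) with the median probe set at 3.18, and hybridization control scaling gave 8056 (8035 higher, 21 lower) at 3.30. The share of higher calls was 99.7% in both, against 53% in the main setting. Relative to those medians they gave 4231 calls (2207 lower) and 4277 calls (2231 lower), with 47.8% of calls higher in each. Median centring, with the median at 0.66, gave 4856 calls, of which 3583 were higher (73.8%). A fit of the probe sets that each of the 4 arrays measured above background left 619 higher calls (28% of calls), and plain probe sets, an alternative added once the values were known, gave 829 lower calls. Leaving out each array gave 145 to 6414 calls in all, 30 to 3422 higher and 115 to 2992 lower; the fewest came without polyribosome replicate 2 and the most without undertranslated replicate 2, the lone array being assumed to vary like the other pool's. Other pseudocounts, filters, fits and 1 probe set per gene stayed within 1.5 times. The difference between serum states gave 0 calls under each scaling, block and weighting tried, and 0 to 902 with an array left out, the 902 without serum undertranslated replicate 2.

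Replicate number 2 marks 4-thiouridine labelling, and deviations of same-numbered arrays of the 2 pools correlated at 0.054, so the numbers were not taken to pair the arrays. Between the serum-treated and starved polyribosome arrays such deviations correlated at 0.275. The undertranslated replicates correlated at only 0.792, so the low value between pools cannot show that the pools are unpaired. A fit with the replicate block gave 1817 higher and 1397 lower calls on 4 arrays and 2218 higher and 1904 lower on 8, and 0 differences between serum states.

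Of the named genes, Eef1a1 was called and turned to -1.02 with values as deposited and with hybridization controls, both relative to the median, and to -0.36 with median centring. Under the first 2 settings, which gave equal values, and under median centring, genes that were not called stood at 0.39 and 1.04 for Fos, 0.52 and 1.17 for Dusp1, 0.40 and 1.05 for Ccl2, 0.56 and 1.21 for Fth1, 0.56 and 1.21 for Atf4, 0.83 and 1.48 for Actb and 0.54 and 1.19 for Odc1. Median centring also moved the called genes Jund to 0.083, Slc11a2 to 0.22 and Snhg1 to 0.25, all below the median probe set at 0.66 there. The Slc11a2 value is that of its probe set called lower, while another was called higher. For single genes these 3 settings are the same values apart from that constant, so they count as 1 alternative. With an array left out Egr1 ranged from -0.040 to 1.07, Fos from -0.72 to 0.13 and Junb from -0.33 to 1.45. The cause of the changes with an array left out was not tested. The tests by protein features were not run. Undertranslated signal near background limits every higher call given as a bound.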

Other observations

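Control probe sets for repeats and ribosomal RNA were not part of any comparison. The B1 repeat probe set had intensities of 1573 and 2287 in polyribosome RNA, against 398.3 and 716.3 in undertranslated RNA. The B2 repeat probe set had 8807 and 9201 in polyribosome RNA, against 5669 and 8939 in undertranslated RNA, where most probe sets were many times dimmer. The probe set for the middle of 18S ribosomal RNA had 407.1 and 255.4 in polyribosome RNA, against 30.3 and 103 in undertranslated RNA.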
